A study of Mus musculus with 2 samples.

Results

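Small RNA from mouse embryonic stem cells lacking Dicer was counted for 1907 miRNAs in the deposited table. Leaving out the numbers named next, 80 of them carried a miRBase number above 1000 and at least 1 count in the 2 libraries together. These 80 are described here; they exclude miR-3963, miR-5099, miR-5126, miR-6236, miR-6240 and miR-6539, which dominated the table, and the chromosome 12 miRNAs miR-1188, miR-1193, miR-1197, miR-3070, miR-3071 and miR-3072. They were chosen by name and by their summed count over both libraries, so their levels are given as a description. Both libraries came from Dicer knockout cells of 129/Ola background, labelled E14 and blastocyst, grown in serum with LIF on gelatin, and no sample with Dicer was analysed here. The labels call library 1 C1 and library 2 H11 and do not say whether these are separate clones, so any spread between them may be technical. Dicer mRNA was not measured.

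A miRNA is normally cut from a hairpin by Drosha in the nucleus and released by Dicer in the cytoplasm as a duplex of a 5p and a 3p strand. Names with high numbers were added late to miRBase, mostly from deep sequencing, and many rest on few reads. Some lie inside small nucleolar RNAs (snoRNAs) or their Cajal body relatives (scaRNAs), which guide the chemical modification of rRNA and snRNA. Others are mirtrons, whose hairpin is a short intron freed by splicing instead of by Drosha.

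Mature sequences from RefSeq (GRCm38.p6) matched 75 of the 80 by name. The other 5 were miR-1949, miR-5620-3p, miR-6917-5p, miR-6953-3p and miR-7668-5p; their 73 counts in library 1 and 34 in library 2 stay in the total of every share by position. Of the 10 matched miRNAs with the most counts, 9 are shown because they held most of the counts, written 5′ to 3′ with the seed, bases 2 to 8, in capitals.
miR-5121: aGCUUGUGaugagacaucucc
miR-5100: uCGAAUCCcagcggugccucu
miR-3535: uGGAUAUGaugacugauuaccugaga
miR-6538: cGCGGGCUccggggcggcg
miR-7226-3p: uGACACAGccauucucugagcag
miR-3068-3p: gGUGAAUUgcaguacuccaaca
miR-7003-3p: cCCCGGGUuuuccccacag
miR-2137: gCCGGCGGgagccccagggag
miR-1247-3p: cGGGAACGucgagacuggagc
No seed was shared among the 75. For 65 of them no other table entry with a sequence had the same seed. Among the 10 most abundant miRNAs numbered 1000 or below, none with a sequence shared a seed with the 75. The pair with counts on both sides was miR-7229-5p (2 counts in library 1, 0 in library 2) and miR-411-5p, both with the seed AGUAGAC; it was singled out after the values were seen.

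The whole table held 45222 counts in library 1 and 37476 in library 2, so that 1 count was worth 22.1 and 26.7 CPM, the count scaled to a table total of 1000000. For the labelled cell type, the miR-290 list of embryonic stem cell markers had counts for 14 of 18 entries. These held 3.62% of library 1 and 3.24% of library 2. Lists for primed epiblast, fibroblast, neural and blood cells and let-7 each held between 0.00885% and 0.0663% of a library. The 9 muscle and 2 liver entries had no counts. Dicer normally releases miRNAs and both libraries lacked it, so few counts of a list cannot show that a cell type was absent. The lists are therefore no test of cell identity. The part of other cell types in the results below was not tested. Intervals cover the counting error of single libraries only. The labels mention no molecular identifiers, so copies of the same molecule may have been counted and the intervals may be too narrow.

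On the table's total, the 80 miRNAs made up a small share of both libraries, and the 2 shares differed by less than counting error. Library 1 held 899 of their counts, 1.99% of its total (95% Wilson interval 1.86 to 2.12), and library 2 held 744, also 1.99% (1.85 to 2.13). The mean was 1.99% ± 0.00191 (SD, n = 2). By comparison, the 6 dominant late-numbered entries held 72.3% and 77.2%, and the 345 miRNAs with counts numbered 1000 or below held 25.7% and 20.8%. The shares of those larger groups differed between the libraries beyond their counting intervals, and the share of the 80 did not. This match holds for the table's total. On a total of miRNAs numbered 1000 or below plus the 80, the mean share was 7.95% ± 1.09 (SD, n = 2), so the libraries matched less closely.

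Counts were concentrated in 11 of the 80. These reached 10 or more counts in total and held 89.4% of the group's counts in library 1 and 92.2% in library 2. A further 18 had 3 to 9 counts, 8 had 2 counts and 43 had a single count. Counts in both libraries were found for 29, in library 1 alone for 30 and in library 2 alone for 21. Just outside the limit lay 965 late-numbered names at 0, so 7.66% of the 1045 eligible names had a count, against 40.9% of the 843 names numbered 1000 or below. A count of 0 was taken to allow up to 3 counts, a share of 0.00663% in library 1 and 0.00801% in library 2.

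**Figure D1:**
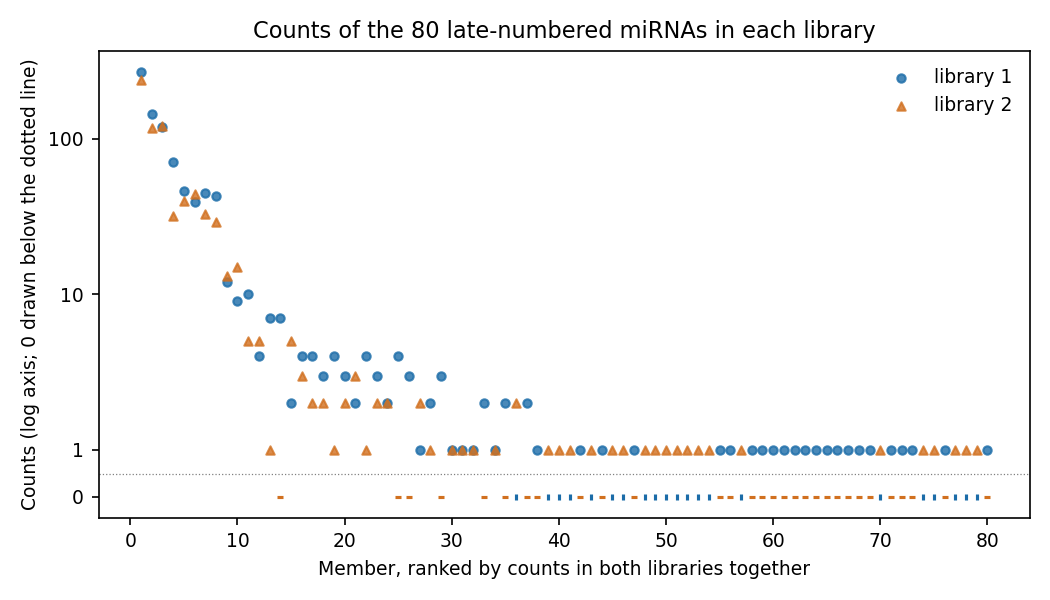
Counts of each of the 80 miRNAs (vertical log axis, zeros drawn below the dotted line) against their rank by summed count, with circles for library 1 and triangles for library 2. Counts fall from 268 and 238 for miR-5121 to single counts for the last 43.

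The largest set by counts lay inside annotated snoRNAs and scaRNAs. On the same strand, 10 of the 75 matched miRNAs lay wholly inside such a gene of GENCODE M21 (GRCm38). To them belonged 448 of the 899 counts of library 1, which is 49.8% with a 95% Wilson interval of 46.6 to 53.1, and 398 of the 744 of library 2, which is 53.5% (49.9 to 57.1), a mean of 51.7% ± 2.59 (SD, n = 2). Without miR-5121 the mean share was 30.1%. The set elsewhere in introns, described below, with 221 counts in library 1 and 193 in library 2, was then the larger. The same position was found for 8 of 848 late-numbered names without counts (0.943%) and for 4 of 282 matched miRNAs with counts numbered 1000 or below (1.42%). Reads of such a miRNA and of the snoRNA around it have the same letters, and the table does not tell them apart.

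**Figure D2:**
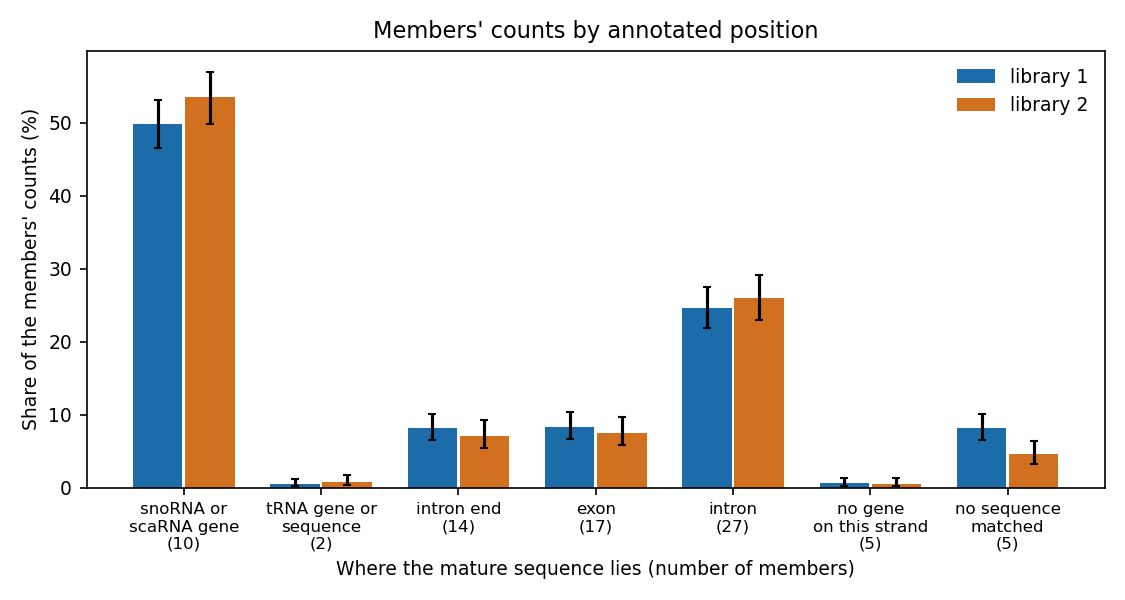
Share of the 80 miRNAs' counts (vertical axis, percent) by the annotated position of the mature sequence, with the number of miRNAs in brackets, bars for each library and 95% Wilson intervals. The snoRNA and scaRNA bars stand at 49.8% and 53.5%, above introns at 24.6% and 25.9%.

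The most abundant of them, miR-5121, was counted 268 times in library 1 and 238 times in library 2, at 6139 ± 300.1 CPM (SD, n = 2), and ranked 13 in the whole table. It lies on chromosome 7 at 45126925 to 45126945, minus strand, in Snord33. That snoRNA sits in a 163-base intron of Rpl13a, a ribosomal protein gene known for carrying several snoRNAs. The 84 bases of Snord33 are printed in DNA letters to show where miR-5121, in capitals, falls within it.
Snord33: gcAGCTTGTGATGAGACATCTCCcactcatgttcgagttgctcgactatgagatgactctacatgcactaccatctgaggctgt
The miRNA covers bases 3 to 23, close to the 5′ end, and includes the letters TGATGA at base 9. Those letters are the core of the C box, which with the D box (CTGA, last found at base 75) marks the class of snoRNAs that guide rRNA methylation.

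A matching position was found for miR-3535, with 118 counts in library 1 and 120 in library 2 (2906 ± 419.1 CPM, SD, n = 2). It lies on chromosome 1 at 86352062 to 86352087, minus strand, in an intron of Ncl, the gene of the nucleolar protein nucleolin. The snoRNA there, Gm24148, is 80 bases long and begins with the 26 bases of miR-3535, again in capitals.
Gm24148: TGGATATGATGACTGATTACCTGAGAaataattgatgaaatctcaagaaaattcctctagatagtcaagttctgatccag
TGATGA starts at its base 7 and the last CTGA at base 72. On the sense strand of mature sequences, UGAUGA occurred in miR-5121 and miR-3535 alone among the 75, and in 12 of 1618 distinct mature sequences of the table (0.742%). Among all 1529 GENCODE snoRNAs and scaRNAs, 26.0% contained TGATGA on the sense strand, as did 2 of the 10 that held these miRNAs. Of the 75, 3 were 26 bases long, and none was longer: miR-3535, miR-1291 and miR-1946b.

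The third abundant case, miR-3068-3p, lay at the other end of its host. It had 43 counts in library 1 and 29 in library 2 (862 ± 125.2 CPM, SD, n = 2), on chromosome 12 at 87437685 to 87437706, minus strand, within Alkbh1. GENCODE annotates a 136-base snoRNA of the same symbol, Mir3068, around it, shown with the miRNA in capitals.
Mir3068 snoRNA: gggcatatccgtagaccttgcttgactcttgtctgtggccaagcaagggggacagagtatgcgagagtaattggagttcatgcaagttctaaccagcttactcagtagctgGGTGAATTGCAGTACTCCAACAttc
The miRNA ends on the letters ACA, 3 bases before the 3′ end. ACA at that distance is the hallmark of H/ACA snoRNAs, which guide the conversion of uridine to pseudouridine. The end ACANNN was found, on the sense strand, in 6 of the 10 hosts, of which Gm23658 and Snora19 hold the same miRNA, and in 18.6% of all 1529 snoRNAs and scaRNAs. The opposite arm, miR-3068-5p, lies in the same snoRNA and had 0 counts in both libraries.

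The remaining 7 of the 10 had 30 counts in all. The arm miR-3084-3p (4 counts in library 1, 2 in library 2) ended 4 bases before the end of Gm23658, in Cbwd1, and of an equally placed second copy in Snora19, in Eif3a. In Gm26083, a scaRNA within Snhg20, miR-6516-3p (2 and 5 counts) ended 2 bases before the end and miR-6516-5p (0 and 1) lay further in. The arms miR-1843a-3p (3 and 0) and miR-1843b-3p (0 and 1) ended 2 and 3 bases before the ends of Scarna3b and Scarna3a. The arm miR-1839-5p (3 and 2) covered bases 65 to 86 of a 127-base scaRNA.
miR-1291: aUGGCUCUuacugaagacuagcaguu
This last one, miR-1291, is printed because it covers the 26 bases at the 5′ end of Snora34, an H/ACA snoRNA in Kansl2. It had 7 counts in library 1 and 0 in library 2, an exact 95% interval for the ratio of library 2 to library 1 that reached up to 0.837, and it was too rare for the test. By position, 3 of the 10 began at most 2 bases after the start of their host and 5 ended at most 4 bases before its end. The former held 751 counts over both libraries and the latter 89, against 6 for the 2 that lay further in.

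**Figure D3:**
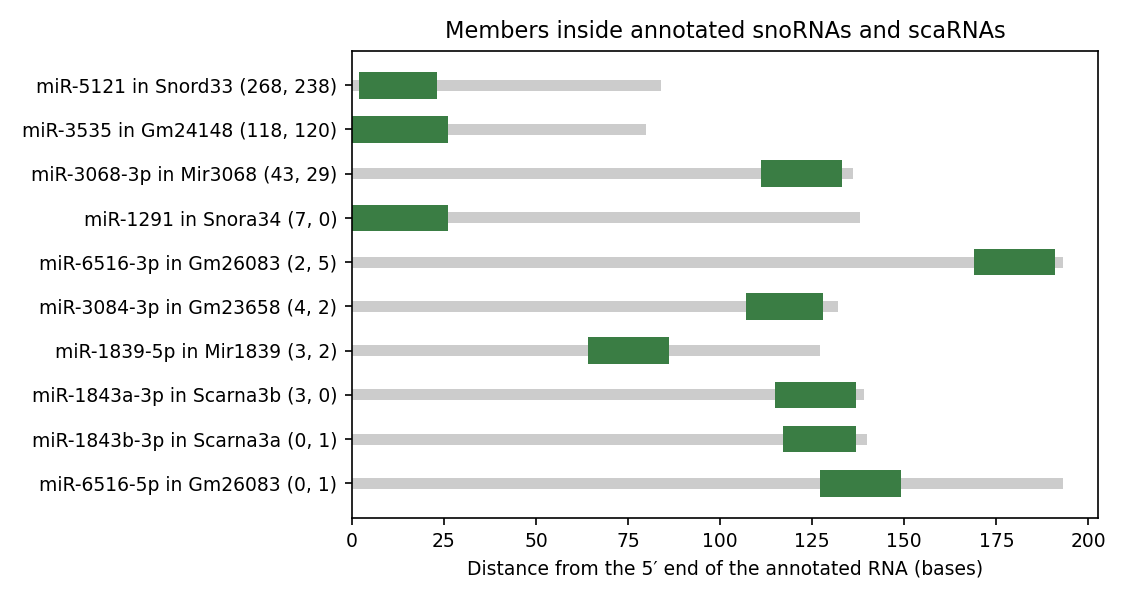
Annotated snoRNAs and scaRNAs (grey, drawn to scale from their 5′ end in bases) with the miRNA inside each in green and its counts in library 1 and library 2 in brackets. Of the 10 miRNAs, 3 start at the left end, 5 stop near the right end, and miR-1839-5p and miR-6516-5p lie further in.

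A second set abutted splice sites, as mirtrons do. In 14 of the 75, the mature sequence came within 2 bases of either end of an annotated intron on its own strand. They had 73 counts in library 1, 8.12% of the group's counts (95% Wilson interval 6.51 to 10.1), and 53 in library 2, 7.12% (5.49 to 9.20). Of these, 13 were 3p arms and 6 lay in an intron of at most 150 bases. In 9 the 3′ end fell on the last intron base, and the same 9 therefore ended in the letters AG of a splice acceptor. A position within 2 bases of an intron end was found for 202 of 848 late-numbered names without counts (23.8%), against 18.7% of the 75. The member that was not a 3p arm, miR-1981-5p, lay at an intron start.

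Most counts of this set came from miR-7226-3p, with 45 in library 1 and 33 in library 2 (938 ± 81.0 CPM, SD, n = 2). It ends on the last base of a 112-base intron of Ptprf, a receptor tyrosine phosphatase gene, on chromosome 4 at 118210505 to 118210527, minus strand. The arm miR-7003-3p had 12 and 13 counts and ends on the last base of a 3655-base intron of Mybl2, the gene of the cell cycle transcription factor B-Myb, on chromosome 2 at 163068137 to 163068155, plus strand. The opposite arms of both had 0 counts in either library. Next were miR-6943-3p (4 counts in library 1 and 1 in library 2) in an 87-base intron of Grk6 and miR-7068-3p (3 and 2) in a 74-base intron of Cherp. Both end on the last base of the intron.

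Counts were few for a short list of miRNAs known to be made without Drosha. The list covers only in part the 10 members inside snoRNA or scaRNA genes and the 14 at intron ends. In the list of mirtrons and snoRNA-derived miRNAs named from general knowledge (miR-1224, miR-1225, miR-1981, miR-3102 and miR-1839), 3 members had counts, with 4 counts in each library. These are shares of 0.00885% in library 1, with a 95% Wilson interval of 0.00344 to 0.0227, and 0.0107% in library 2 (0.00415 to 0.0274). Besides miR-1839-5p these were miR-1981-3p, with 1 count in each library, and miR-1981-5p, with 0 and 1. They lie at opposite ends of an 82-base intron of Marc2, with the 5p strand starting on the first intron base. The listed entries of miR-1224 and miR-3102 had 0 counts in both libraries, and miR-1225 had no entry. Both arms of miR-1306, whose hairpin lies in the transcript of the Drosha partner Dgcr8, also had 0 counts in both libraries.

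Of the other miRNAs, 17 lay in exons, 27 elsewhere in introns and 5 where no gene was annotated on their strand. The intron set held 24.6% of the group's counts in library 1 and 25.9% in library 2, mainly through miR-5100 with 3162 CPM in library 1 and 3122 in library 2 (mean 3142 ± 28.4 CPM, SD, n = 2). It lies on chromosome 11 at 60728698 to 60728718, plus strand, in an intron of Mief2, a gene of mitochondrial fission. Of the 17 in exons, 12 overlapped a UTR, 2 a coding sequence and 3 a noncoding RNA. The last 3 included both arms of miR-1247 in Dio3os, the noncoding RNA beside the deiodinase gene Dio3: miR-1247-3p had 10 and 5 counts and miR-1247-5p had 4 and 1.

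Several abundant members were very rich in G and C. With 94.7% GC, miR-6538 (39 counts in library 1, 44 in library 2) was the highest; it lies in an intron of Rnf144a, a ubiquitin ligase gene, on chromosome 12 at 26414970 to 26414988, minus strand. At 85.7%, miR-2137 (9 and 15 counts) lies in an intron of Zfp185 on chromosome X at 72992113 to 72992133, plus strand. The GC content of miR-5122 (46 and 40 counts) was 85%. At or above 75% GC, a limit chosen after the values were seen, were 8 of the 75 (10.7%) and 19 of 848 late-numbered names without counts (2.24%). The share was higher among the matched entries with counts that the choice of members left out, 3 of 6 (50%). None of the 282 matched miRNAs with counts numbered 1000 or below reached it. The median GC content was 54.5% in the 75, 55.3% in the late-numbered names without counts and 45.6% in the last set.

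Fragments of tRNA sequence were found in 2 members by a limited search. Nuclear tRNA genes were compared by overlap with the hairpin, and only mitochondrial tRNAs by the mature sequence. Whether other members match a nuclear tRNA by sequence was not tested. The hairpin of miR-1983 (4 counts in library 1, 5 in library 2) contains all 94 bases of n-TItat14, an isoleucine tRNA gene of RefSeq on chromosome 13, and its mature sequence shares 13 bases with it. The 19 bases of miR-6481 (0 and 1 count) occur exactly in mt-Tf, the mitochondrial phenylalanine tRNA.

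Arms were compared because Dicer frees both strands of a hairpin. The 58 members with an arm in their name came from 53 hairpins, all listed with a 5p and a 3p product. On the 5p side were 32 of the 173 counts of library 1, which is 18.5% with a 95% Wilson interval of 13.4 to 24.9, and 24 of the 122 of library 2, which is 19.7% (13.6 to 27.6), a mean of 19.1% ± 0.831 (SD, n = 2). Over all 776 hairpins of the table listed with both arms the 5p share was 82.5% and 77.2%. These shares are also weighted by counts: by number, of 278 hairpins with any count, 165 had more 5p and 104 more 3p counts. The low share came from few hairpins: miR-7226, miR-3068 and miR-7003 had 3p counts and no 5p counts, while by number 27 hairpins had more 5p and 26 more 3p counts. Without the hairpin with the most counts in each library the mean 5p share was 26.0%. Both arms had counts in 5 of the 53: miR-1247, miR-6516, miR-3064, miR-1981 and miR-3063. Over all hairpins with any count it was 116 of 278. A hairpin with a single count cannot show both arms, and many of the 53 had no more, so depth limits this number.

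**Figure D4:**
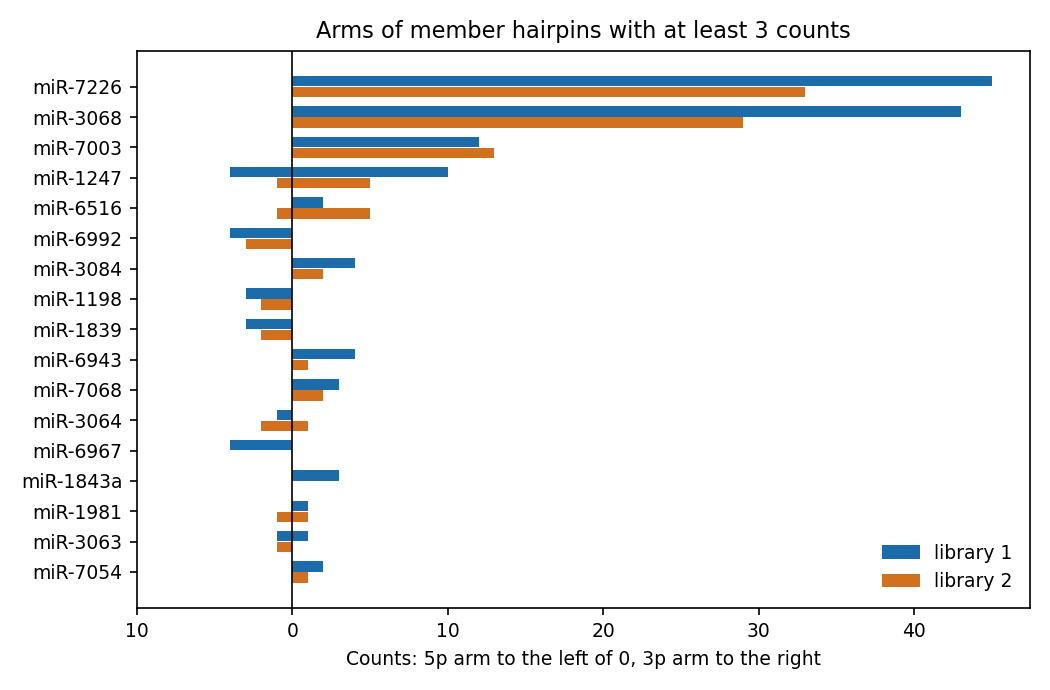
Counts of the 5p arm (to the left of 0) and the 3p arm (to the right of 0) for hairpins with at least 3 counts, in both libraries. The 3 longest bars, miR-7226, miR-3068 and miR-7003, are 3p only.

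The libraries were then compared with each other, miRNA by miRNA. Fisher's exact test, two-sided, was run on every miRNA of the table with at least 10 counts in total, and a call needed a Benjamini-Hochberg adjusted p below 0.05 and a 2-fold difference in CPM. It compares 2 libraries, not conditions. Of the 11 members tested, 0 were called, against 10 of all 129 tested (7.75%). Without the fold minimum, 1 of the 11 passed (19.4% of all tested), and at an unadjusted p below 0.05 it was again 1 (23.3% of all tested). The CPM ratio of the libraries was under 2-fold for 10 of the 11. The median absolute log2 ratio was 0.30 for the 11 and 0.52 for all 129. The 2 sets were not matched for counts, and ratios at fewer counts vary more by counting error alone.

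That 1 was miR-1949, with 71 counts in library 1 and 32 in library 2. Its CPM was 1570 in library 1 and 854 in library 2, a ratio of library 2 to library 1 of 0.544 (exact 95% interval 0.347 to 0.837; Fisher's exact test, adjusted p = 0.0219). Scaled instead to the early-numbered miRNAs (1000 or below), where every log2 ratio moved by 0.31 towards library 2, its adjusted p by Fisher's exact test was 0.224. Scaled by TMM factors and to the total without the 10 most abundant miRNAs, it was 0.0280 and 0.0481.

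None of the other 10 passed the test on the table's own total, and each of their intervals included a ratio of 1. For miR-5121 the ratio of library 2 to library 1 was 1.07 (exact 95% interval 0.896 to 1.28; Fisher's exact test, adjusted p = 0.711). For miR-3535 it was 1.23 (0.944 to 1.60; Fisher's exact test, adjusted p = 0.338). The ratio of miR-5100 was 0.987 (0.767 to 1.27), and that direction turned on each of the other scales. Scaled to the early-numbered miRNAs, miR-5121 and miR-3535 did pass the threshold (Fisher's exact test, adjusted p = 0.0121 and 0.00872) with log2 ratios of 0.41 and 0.60, under 2-fold. On the log scale, the widest interval among the 11 was that of miR-1247-3p, 0.162 to 1.94.

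**Figure D5:**
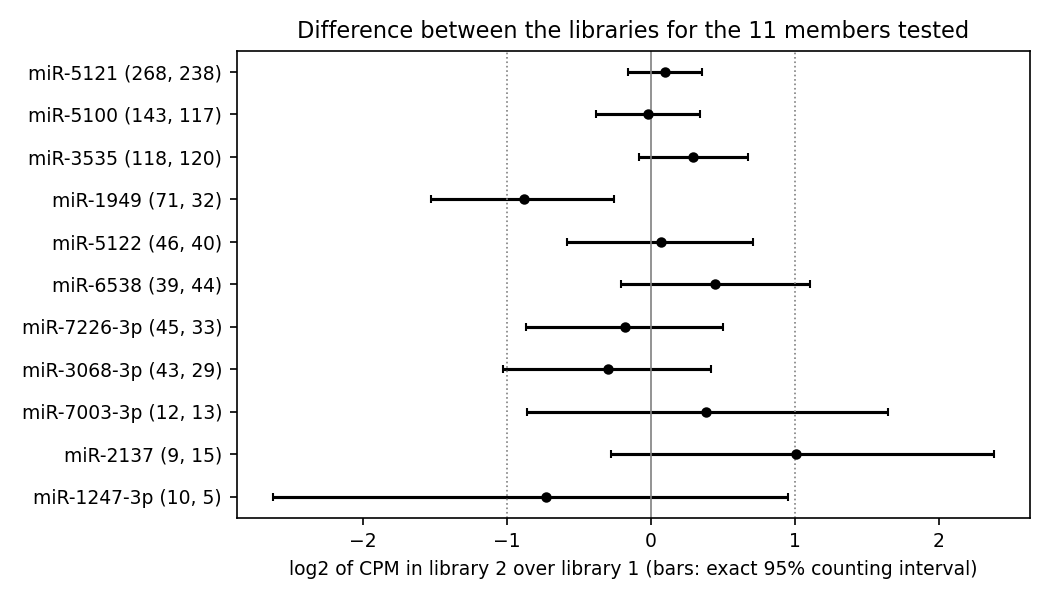
Log2 ratio of CPM in library 2 over library 1 (horizontal axis) for the 11 miRNAs with at least 10 counts, with exact 95% counting intervals, counts in library 1 and library 2 in brackets and dotted lines at 2-fold. Only the interval of miR-1949 does not include 0.

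Below 10 counts single miRNAs were too rare for the test. Of those counted in both libraries, the most uneven was miR-6399, from an intron of Eif4g3, with 7 counts in library 1 and 1 in library 2, a ratio of 0.172 (exact 95% interval 0.00382 to 1.34). For miR-6516-3p the ratio was 3.02 (0.494 to 31.7). Both intervals include equal shares. So does that of miR-6967-5p, with 4 counts in library 1 and 0 in library 2, whose exact 95% interval for the ratio reached up to 1.83. Its sequence lies in 88-base introns of both Kifc5b and Kifc1, 2 related kinesin genes, so its counts cannot be assigned to either. The interval of miR-1291, which reached up to 0.837, did not include equal shares. That miRNA was 1 of 69 members under 10 counts, and the interval was not adjusted for their number.

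The others with 3 to 9 counts lay in different host genes. In introns lay miR-6992-5p (4 counts in library 1, 3 in library 2; Stx5a, a Golgi fusion protein gene), miR-1198-5p (3 and 2; Gripap1) and miR-6241 (2 and 2; Gm4675). At the end of an intron of Scaf1 lay miR-7054-3p (2 and 1). In exons lay miR-5133 (2 and 3; a UTR of Glce), miR-8094 (3 and 0; the coding sequence of the RNA helicase gene Ddx39b) and miR-3064-5p (1 and 2; a UTR of Ddx5, the gene of an RNA helicase that assists Drosha). Of the miRNAs with 2 counts, 4 of 8 lay where no gene was annotated on their strand: miR-5627-3p, miR-6239, miR-6363 and miR-7229-5p. Of the 43 single counts, 23 fell in library 1 and 20 in library 2; miR-6917-5p and miR-6953-3p were counted in library 1 and miR-5620-3p and miR-7668-5p in library 2. At these counts the presence of a name in 1 library and its absence from the other is within counting error.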

How the data were processed

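Small RNA of 2 Dicer knockout samples was sequenced after preparation with a TruSeq small RNA kit, per the labels' protocols. The authors deposited 1 table of raw counts per mature miRNA. The submitters' processing notes name cutadapt, STAR, featureCounts and mm10 without order or settings; the treatment of reads matching several places is not given in the sources used here. All 1907 rows name a miRNA, and 0 value columns lacked a sample.

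Each column was taken as 1 replicate by its title. CPM used the table's total. Shares have 95% Wilson intervals; CPM ratios have exact (Clopper-Pearson) intervals. Fisher's exact test took miRNAs with at least 10 counts in total. It was run on simulated data with counting error alone. Those data do not show how it behaves with copies of the same molecule or other spread between libraries. Positions and sequences came from RefSeq (GRCm38.p6) and GENCODE M21, the build mm10 corresponds to. A miRNA at several positions took the class listed first: snoRNA or scaRNA, tRNA, intron end, exon, intron, none. Named were members with at least 10 counts, their arms, the Drosha-independent list with miR-1306 and seed relatives; those under 10 counts named for position, arm or GC content were chosen after their values were seen. Members and lists were chosen with earlier results of these data known. Alternatives covered library scale, count and fold minimum, denominators, hairpins and leaving out each library. Tests and intervals came from scipy 1.17.1 under Python 3.11.15 (with pandas 2.3.3 and numpy 2.4.6), TMM scaling factors from edgeR 4.0.16 in R 4.3.3, and plots from matplotlib 3.10.9. The position of miR-5122 is not reported here.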

Additional observations from a re-analysis of the deposited data

How the results depend on the processing

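The number of members called between the libraries was 0 as reported and under each other scale and count minimum, and 1 without a fold minimum. The mean share of the table held by the 80 members, 1.99%, was 1.80% for those with at least 10 counts. It was 15.8% once the 10 most abundant miRNAs were taken out of the total. On a total of early-numbered miRNAs (1000 or below) plus the members it was 7.95%. The higher means of the last 2 follow from the smaller denominator. The SD over the libraries (n = 2) was 0.00191 as reported, and 0.382 and 1.09 in these last 2. Counts in both libraries were found for 29 members, for 13 at a minimum of 3 counts and for 9 at 10 counts. The mean 5p share, 19.1%, was 26.0% when each library's top hairpin was left out and 2.37% over hairpins with at least 10 counts. The mean share in snoRNA and scaRNA genes, 51.7%, was 30.1% without miR-5121 and 54.9% over members with at least 10 counts; these settings were chosen after seeing the data, and allowing any overlap changed nothing.

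Of 33 log2 ratios of single members under other scales, 28 kept direction and call and 5 reversed, with no call on either side. The ratio of miR-5100 went from -0.02 to 0.29 when scaled to the early-numbered miRNAs, 0.033 without the 10 most abundant and 0.023 under TMM. Scaled to the early-numbered miRNAs, miR-7226-3p went from -0.18 to 0.13 and miR-3068-3p from -0.30 to 0.010. Each scale moved the log2 ratios of all members by 1 amount. It was 0.31 for the early-numbered miRNAs, 0.051 without the 10 most abundant and 0.041 under TMM. Why the scales differed was not tested.

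Leaving out 1 library in turn gave 1.985% to 1.988% for the share of the table, 50 to 59 members with a count, 18.5% to 19.7% for the 5p share, 0.00885% to 0.0107% for the list made without Drosha and 49.8% to 53.5% for snoRNA and scaRNA genes. The comparison of the libraries needs both. No paired analysis was possible because both libraries belong to 1 group. Depth limits the comparison of single miRNAs to 11 of the 80.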
